A study of Drosophila melanogaster with 8 samples.

Results

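The cytosolic ribosomal protein genes of Drosophila melanogaster were examined as a group in RNA from mature enterocytes of the adult posterior midgut. Members were the genes of the deposited count table whose FlyBase symbol begins with RpL, RpS or RpLP followed by a digit, which gave 78 of 9177 genes, 47 for the large subunit and 31 for the small subunit. The rule used names alone and no measured value, though it was set with earlier results of these data known. A further 14 genes with such names (RpL7-like, RpL10Aa, RpL19, RpL22-like, RpL27A, RpL31, RpL37-2, RpS6, RpS10a, RpS10b, RpS12, RpS19b, RpS28a and RpS28-like) were not analysed here. All 78 members passed the filter on low counts and were tested.

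The groups shared 1 driver background, MyoIA-Gal4, UAS-GFP with tubGal80TS. MyoIA-Gal4 drives expression in enterocytes, which absorb nutrients, and the temperature-sensitive Gal80 holds it silent until the flies are warmed. Ctrl (n = 2) came from a cross to Canton-S flies, with genotype MyoIA-Gal4, UAS-GFP/+; tubGal80TS/+. The group labelled RNAiSvb (n = 3) carried UAS-SvbRNAi, a hairpin against Shavenbaby, over tubGal80TS. The SvbAct group (n = 3) carried UAS-SvbACT::GFP, a constitutively active form of Shavenbaby, over tubGal80TS. Shavenbaby, or Svb, is the somatic transcription factor made from the gene ovo, and the series asks which genes it acts on in enterocytes. All groups were virgin females moved to 29 °C at 3 days of age and dissected at 9 days, after 6 days of induction. Each library came from a pooled batch of females, whose digested guts were strained so that patches of enterocytes stayed on the mesh while single cells passed through. Replicates were made on different calendar days. The strain label speaks of induction in intestinal stem cells, whereas the genotype and growth protocol name the enterocyte driver.

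Ribosomes are built from rRNA and many proteins, of which those named RpS belong to the small subunit that reads the mRNA and those named RpL to the large subunit that forms the peptide bond. Their genes are among the most strongly expressed in most cells, and their products are needed in matched amounts, since flies with a single working copy of many of them develop slowly with short bristles, the Minute phenotype. A few names with the same stem belong to paralogs used in other tissues, or to assembly factors that resemble a ribosomal protein and do not stay in the finished ribosome.

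Libraries held between 15450011 and 23748649 counts in genes. CPM are TMM-scaled counts relative to library size, and log2 fold changes, standard errors and adjusted p-values are from edgeR's two-sided quasi-likelihood test over 8775 genes with Benjamini-Hochberg adjustment, called at 0.05. The gene ovo, examined as a check of the labels, had 0.481 and 0.121 CPM in Ctrl, 1.82, 1.11 and 2.95 CPM in the libraries labelled RNAiSvb, and 47.9, 82.8 and 43.5 CPM in SvbAct. It was higher in SvbAct than in Ctrl, with a log2 fold change of 7.52 (SE 0.64, adjusted p = 0.000219). Under the hairpin it was not lower but above both Ctrl libraries, with a log2 fold change of 2.63. That difference had an unadjusted p under 0.05 in the quasi-likelihood test and was not called. With so low a level in Ctrl, a fall could hardly be measured. As the check cannot show a knockdown, the hairpin group is called the libraries labelled RNAiSvb throughout. A single library in each of the groups with 3 libraries stood apart for the members. In RNAiSvb replicate 2, 73 of 78 members were above the mean of the other RNAiSvb libraries, by a median of 0.56 on the log2 scale. In SvbAct replicate 2, 56 of 78 were above the mean of the other SvbAct libraries, by a median of 0.22, with a wide spread between genes. Values without these libraries are given beside the results that they move most. Both comparisons with Ctrl share the same 2 Ctrl libraries. These differed as well: 61 of 78 members were higher in Ctrl replicate 1 than in Ctrl replicate 2. The median difference over all members was 0.21 on the log2 scale.

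The members together took a smaller part of the transcriptome in SvbAct than in either other group. Their share of all counts was 6.64% and 5.54% in Ctrl, 6.48%, 9.02% and 6.79% in the libraries labelled RNAiSvb, and 5.23%, 5.09% and 4.96% in SvbAct. The 3 SvbAct values lay closely together and below all 5 others, while Ctrl and the libraries labelled RNAiSvb overlapped. Group means were 6.09% ± 0.78 (SD, n = 2) in Ctrl, 7.43% ± 1.39 (SD, n = 3) for RNAiSvb and 5.09% ± 0.134 (SD, n = 3) in SvbAct. The large subunit genes held between 61.3% and 63.2% of the member counts in every library, so the balance of counts between the subunits moved little. A share of counts in bulk RNA cannot tell fewer cells of a type from less RNA per cell.

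**Figure D1:**
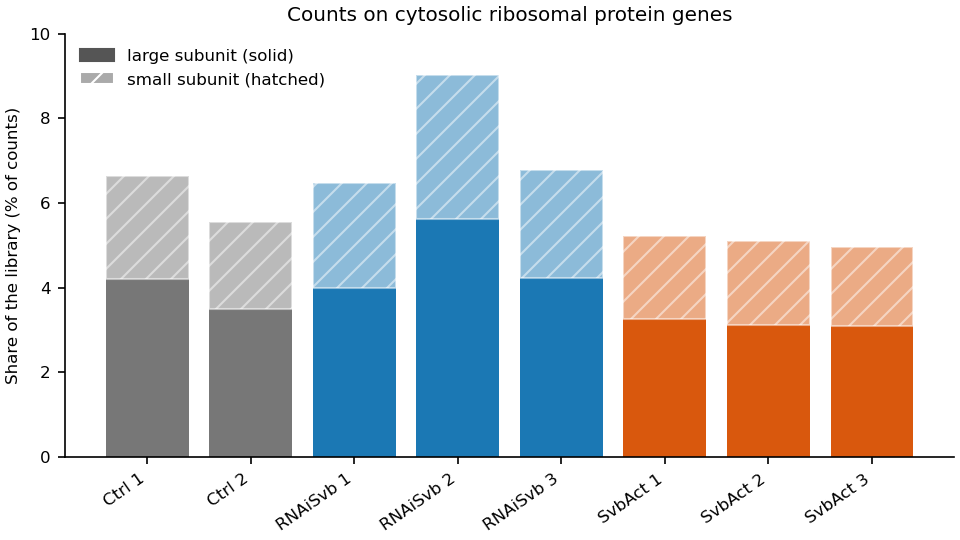
Share of each library's counts (percent, vertical axis) on the 78 ribosomal protein genes, stacked as large subunit (solid) and small subunit (hatched), for each of the 8 libraries. The SvbAct bars end between 4.96% and 5.23%, below both Ctrl bars, and RNAiSvb replicate 2 reaches 9.02%.

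The lower share in SvbAct was spread over most members and was not carried by a few abundant ones. Each member's CPM was divided by its Ctrl mean, and the median over the 78 log2 ratios was taken in each library. The median was 0.10 and -0.11 in Ctrl, 0.04, 0.53 and -0.04 in the libraries labelled RNAiSvb, and -0.33, -0.17 and -0.43 in SvbAct. The SD of these medians within groups, pooled over the groups, was 0.224. A like median over all genes with a Ctrl mean of at least 1 CPM lay between -0.06 and 0.01 in every library. Unlike for the members, 0.5 CPM was added to both terms of those ratios, which draws them towards 0. In SvbAct, 74, 53 and 75 of 78 members lay below their Ctrl mean. Among the libraries labelled RNAiSvb, 47, 74 and 30 of 78 lay above it, so that only replicate 2 stood clearly above Ctrl. The spread between genes also differed: the interquartile range of the log2 ratios was 0.55 in SvbAct replicate 2 and 0.49 in RNAiSvb replicate 2, against 0.15 to 0.25 in the other libraries.

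**Figure D2:**
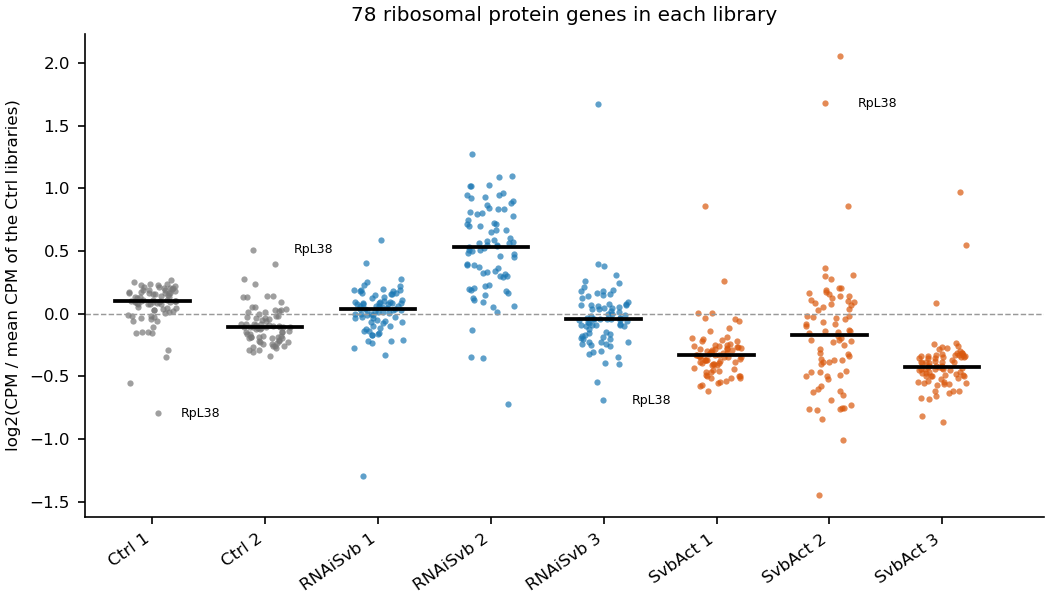
Log2 ratio of CPM to the mean of the Ctrl libraries (vertical axis) for each of the 78 members (points) in each library, with the median as a bar. The medians of the SvbAct libraries lie at -0.33, -0.17 and -0.43, RNAiSvb replicate 2 lies at 0.53, and RpL38 is marked where it falls far from the other points.

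No member was called between Ctrl and the libraries labelled RNAiSvb, where 1.36% of all genes tested were called. Of the 78 members, 66 had a positive log2 fold change, against 52.4% of all genes, and the median was 0.19 against 0.02. At an unadjusted p under 0.05 there was 1 member, RpLP0-like, against 6.58% of all genes higher. That count was 0 without Ctrl replicate 2, 6 without RNAiSvb replicate 1 against 7.12%, and 5 without RNAiSvb replicate 3 against 5.87%, all of them higher. The DESeq2 Wald test called 0 members, against 4% of all genes, and edgeR's likelihood ratio test called 0, against 3.75%. In 9 members every library labelled RNAiSvb lay above both Ctrl libraries, which is 11.5% of members against a background of 15.9%, and in 0 did every one lie below, against 17%. The upward median rested on RNAiSvb replicate 2. Without it the median was 7.7e-05, with 39 members above 0 and 39 below. It was 0.34 without Ctrl replicate 1, 0.14 without Ctrl replicate 2, 0.29 without RNAiSvb replicate 1 and 0.32 without RNAiSvb replicate 3. Without Ctrl replicate 1, the count of members with every RNAiSvb library above the remaining Ctrl library was 48 against a background of 29.8%, and without RNAiSvb replicate 3 it was 21 against 21.6%. The count with every one below was 10 without RNAiSvb replicate 2 against 23.2%, 6 without Ctrl replicate 2 against 26.4%, and at most 2 without any other single library.

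Among the members with the highest fold changes in that comparison were RpLP0-like, RpL9, RpLP2 and RpS30, and those with the lowest were RpL38, RpL29, RpS24, RpL5 and RpL41. RpL9, a large subunit protein, had 673 and 599 CPM in Ctrl, 722, 1367 and 700.2 CPM in the libraries labelled RNAiSvb, and 524, 607 and 513 CPM in SvbAct. RpS30, which is made as a fusion with a ubiquitin-like protein, had 599.8 and 520.1 CPM in Ctrl, 669, 1024 and 663 CPM in the libraries labelled RNAiSvb, and 463, 554 and 466 CPM in SvbAct. In both genes the 3 libraries labelled RNAiSvb lay above both Ctrl libraries, with replicate 2 far above its fellows, and the log2 fold changes were 0.55 (SE 0.28, adjusted p = 0.432) for RpL9 and 0.49 (SE 0.22, adjusted p = 0.377) for RpS30. Without RNAiSvb replicate 2 these were 0.16 and 0.25. RpS24, a small subunit protein, had 1072 and 930.1 CPM in Ctrl, 1033, 785 and 903 CPM in the libraries labelled RNAiSvb, and 795, 779 and 735 CPM in SvbAct. Its lowest library labelled RNAiSvb was replicate 2, the reverse of most members, and the groups overlapped, with a log2 fold change of -0.14 (SE 0.18, adjusted p = 0.776), which was -0.05 without that library. For RpL5, which together with RpL11 carries a small rRNA into the large subunit, the difference was -0.09 (SE 0.21, adjusted p = 0.885), and -0.28 without that library.

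Against Ctrl, SvbAct had lower values for nearly all members, though none was called singly. Of the 78 members, 74 had a negative log2 fold change, against 51.1% of all genes, and the median was -0.29 against -0.01. The test called 0 members, where 3.44% of all genes were called. At an unadjusted p under 0.05 there were 13 members, all lower, against 7.81% of all genes lower, and the DESeq2 Wald test and the likelihood ratio test also called 0, against 7.31% and 6.95% of all genes. In 37 members all 3 SvbAct libraries lay below both Ctrl libraries, which is 47.4% of members against 20% of all genes tested, and in 2, RpLP0-like among them, all 3 lay above, against 18.7%. Without SvbAct replicate 2 the count below was 68 against a background of 26.4%, and without Ctrl replicate 2 it was 57 against 33.3%. The median was -0.37 without SvbAct replicate 2, -0.19 without Ctrl replicate 1 and -0.41 without Ctrl replicate 2. The members lower at an unadjusted p under 0.05 numbered 2 without Ctrl replicate 1 against 4.5% of all genes, 7 without SvbAct replicate 2 against 6.28%, and 25 without RNAiSvb replicate 2 against 8.82%.

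The lowest fold changes against Ctrl belonged to RpL24-like, RpL6, RpL37-1, RpL29 and RpL3. RpL3, which lies next to the site of peptide bond formation, had 3083 and 2182 CPM in Ctrl, 2350.0, 2913 and 2470.1 CPM in the libraries labelled RNAiSvb, and 1762, 1632 and 1808 CPM in SvbAct. RpL37-1, a large subunit protein, had 1434 and 1251 CPM in Ctrl, 1159, 1653 and 1151 CPM in the libraries labelled RNAiSvb, and 926, 798 and 874 CPM in SvbAct. RpL29, also of the large subunit, had 560.0 and 557 CPM in Ctrl, 461, 602 and 422 CPM in the libraries labelled RNAiSvb, and 391, 404 and 307 CPM in SvbAct. All 3 SvbAct libraries lay below both Ctrl libraries in each of these genes. The log2 fold changes were -0.60 (SE 0.21, adjusted p = 0.162) for RpL3, -0.63 (SE 0.21, adjusted p = 0.141) for RpL37-1 and -0.60 (SE 0.20, adjusted p = 0.147) for RpL29.

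Between SvbAct and the libraries labelled RNAiSvb, 76 of 78 members were lower in SvbAct. Over all genes 51.5% were lower, and the median log2 fold change was -0.54 for members against -0.02 for all genes. That median rested in part on RNAiSvb replicate 2 and was -0.29 without it, with 74 of 78 still lower, which to 2 decimals is the median of SvbAct against Ctrl. In 46 members, 59% of them, the 3 SvbAct libraries lay below all 3 libraries labelled RNAiSvb, against 14.9% of all genes tested, and in 0 members did they lie above. Without SvbAct replicate 2 this count was 68 against a background of 19.3%, without RNAiSvb replicate 2 it was 47 against 18.6%, and without both it was 69 against 24.1%. The test called 3 members, all lower in SvbAct, where 2.21% of all genes were called lower and 6.26% in all. An unadjusted p under 0.05 was reached by 48 members lower in SvbAct, against 11.6% of all genes, and by 1 that was higher, RpL38, against 12.1%. The count of lower members fell to 22 without RNAiSvb replicate 2 against 7.74%, to 25 without SvbAct replicate 3 against 9.99%, and to 29 without SvbAct replicate 1 against 9.72%.

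**Figure D3:**
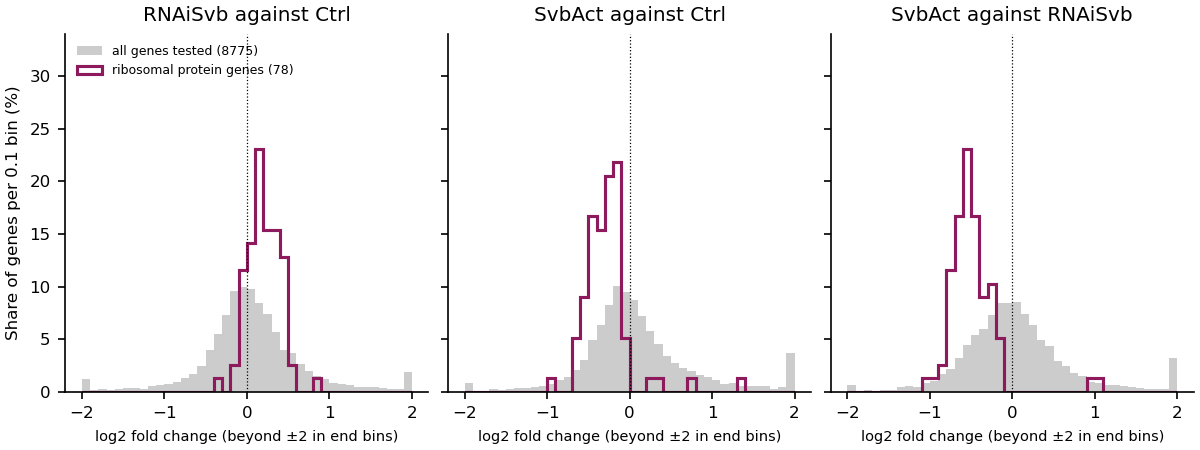
Share of genes in bins of the log2 fold change (horizontal axis) for all 8775 genes tested (grey) and for the 78 members (outline), in the 3 comparisons. The member medians lie at 0.19, -0.29 and -0.54, against 0.02, -0.01 and -0.02 for all genes.

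The 3 called members were RpL6, RpS3A and RpS27A. RpL6 (FBgn0039857, chromosome 3R, 31594792 to 31596204, minus strand of the BDGP6.54 annotation), a large subunit protein, had 1779 and 1236 CPM in Ctrl, 1470.2, 1889 and 1468 CPM in the libraries labelled RNAiSvb, and 1031, 886 and 974 CPM in SvbAct. Every SvbAct library lay below every other library, and the gene fell by 0.74 on the log2 scale between the libraries labelled RNAiSvb and SvbAct (SE 0.19, adjusted p = 0.049). RpS3A (FBgn0017545, chromosome 4, 65225 to 67207, minus strand), a small subunit protein and the one member on chromosome 4, had 1149 and 1176 CPM in Ctrl, 1217, 1476 and 1240.2 CPM in the libraries labelled RNAiSvb, and 840.5, 846 and 913 CPM in SvbAct. Here too all SvbAct libraries were below the other 5, and the gene fell by 0.60 (SE 0.15, adjusted p = 0.0481). RpS27A (FBgn0003942, chromosome 2L, 10408352 to 10410456, plus strand), whose product is ubiquitin joined to a small subunit protein, had 574 and 533 CPM in Ctrl, 632, 788 and 631 CPM in the libraries labelled RNAiSvb, and 462, 371 and 449 CPM in SvbAct. It fell by 0.68 (SE 0.16, adjusted p = 0.0369), with all SvbAct libraries lowest. Reads from its ubiquitin part can be shared with other ubiquitin genes, and its exons overlap those of Ip259 by 35 bases, so its values are uncertain.

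These calls lay close to the threshold and depended on the libraries and the fit used. The number of members called was 0 without Ctrl replicate 1, Ctrl replicate 2, SvbAct replicate 1, SvbAct replicate 2, SvbAct replicate 3 or RNAiSvb replicate 2, each left out alone. It was 2 without RNAiSvb replicate 1, against 2.04% of all genes called lower, and 1 without RNAiSvb replicate 3, against 1.23%. The DESeq2 Wald test called 23 members, all lower in SvbAct, against 4.75% of all genes lower, and edgeR's likelihood ratio test called 18, all lower, against 4.31%. Both of these counts contained RpL6, RpS3A and RpS27A. With all libraries of both groups kept, the quasi-likelihood test called 0 with the replicate block and 0 when only the groups compared were fitted. The shares of all genes called lower there were 1.6% and 1.28%. It called RpS27A alone with DESeq2 size factors or with at least 10 counts in every library, against 1.94% and 2.06%.

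Other members fell short of the threshold. RpL4, whose long extension lines the tunnel through which the new peptide leaves, had 1628 and 1155 CPM in Ctrl, 1424, 2712 and 1544 CPM in the libraries labelled RNAiSvb, and 988, 1364 and 942 CPM in SvbAct. RpL36A, a large subunit protein, had 528 and 458 CPM in Ctrl, 424, 951 and 440.4 CPM in the libraries labelled RNAiSvb, and 366, 358 and 307 CPM in SvbAct. In RpL4 the SvbAct libraries were below all libraries labelled RNAiSvb, but replicate 2 lay above Ctrl replicate 2, whereas in RpL36A the SvbAct libraries were below all others. The log2 fold changes were -0.79 (SE 0.27, adjusted p = 0.116) and -0.82 (SE 0.28, adjusted p = 0.116), and without RNAiSvb replicate 2, the highest library in both genes, they were -0.43 and -0.33.

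**Figure D4:**
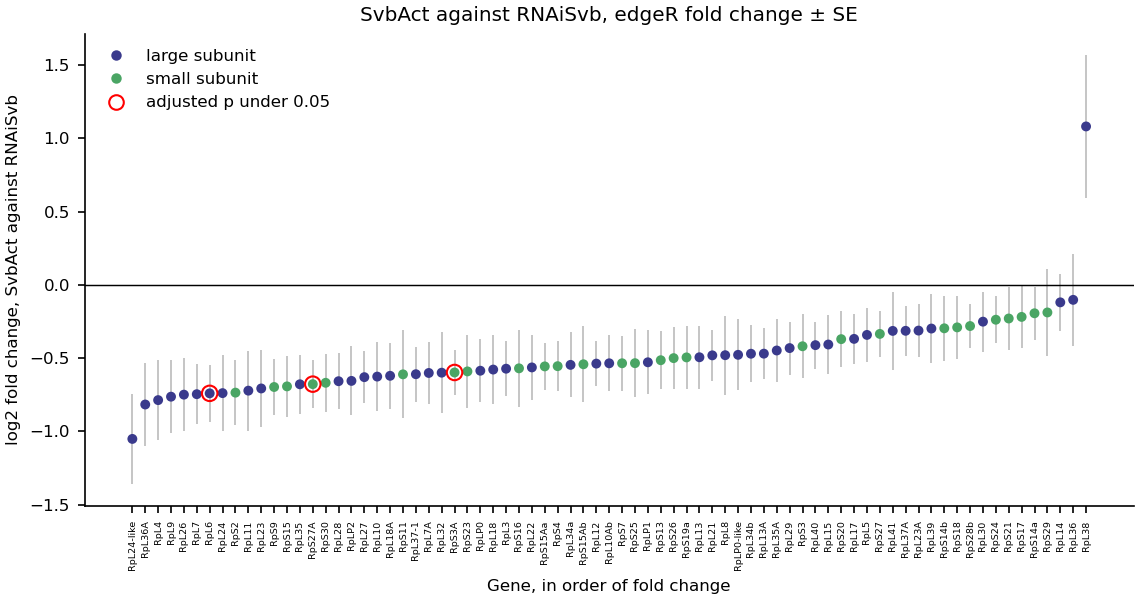
Log2 fold change of SvbAct against RNAiSvb with its standard error (vertical axis) for 75 of the 78 members in order of size, coloured by subunit, with the 3 members under an adjusted p of 0.05 ringed. RpL38 alone among those plotted lies above 0.

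Both subunits had medians of the same sign in each comparison. The median log2 fold change of large and small subunit members was 0.18 and 0.24 for the libraries labelled RNAiSvb against Ctrl, -0.36 and -0.25 for SvbAct against Ctrl, and -0.55 and -0.53 for SvbAct against the libraries labelled RNAiSvb. The stalk proteins RpLP0, RpLP1 and RpLP2 form the arm of the large subunit that recruits elongation factors. RpLP0 had 1366 and 1128 CPM in Ctrl, 1136, 1829 and 1094 CPM in the libraries labelled RNAiSvb, and 875, 946 and 884 CPM in SvbAct. RpLP1 had 1396 and 1198 CPM in Ctrl, 1155, 1837 and 1087 CPM in the libraries labelled RNAiSvb, and 890.4, 1065 and 873 CPM in SvbAct. RpLP2 had 1550.1 and 1223 CPM in Ctrl, 1574, 2486 and 1808 CPM in the libraries labelled RNAiSvb, and 1062, 1603 and 1062 CPM in SvbAct. In RpLP0 and RpLP1 every SvbAct library was below both Ctrl libraries, while RpLP2 in SvbAct replicate 2 was above both. RpL40, the other member made as a ubiquitin fusion, had 867 and 844 CPM in Ctrl, 823, 912 and 726 CPM in the libraries labelled RNAiSvb, and 645, 663 and 543 CPM in SvbAct. All its SvbAct libraries were below the other 5, as for RpS27A, and the same limit on shared ubiquitin reads applies. RpL11, the partner of RpL5, had 579 and 506 CPM in Ctrl, 557, 1155 and 557 CPM in the libraries labelled RNAiSvb, and 438, 526 and 413 CPM in SvbAct, and here SvbAct replicate 2 was above Ctrl replicate 2.

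A few members departed from the common shift, judged by a log2 fold change more than 3 scaled median absolute deviations from the member median. RpL38 (FBgn0040007, chromosome 2R, 4515388 to 4516458, minus strand), a large subunit protein known in mice for its effect on translation of Hox mRNAs, had 93.7 and 231 CPM in Ctrl, 159.6, 128 and 101 CPM in the libraries labelled RNAiSvb, and 163, 521 and 138 CPM in SvbAct. Replicate 2 of SvbAct was far above every other library, and the Ctrl libraries themselves differed widely, with Ctrl replicate 1 the lowest of all 8. Its log2 fold change was 0.75 (SE 0.55, adjusted p = 0.529) against Ctrl and 1.08 (SE 0.49, adjusted p = 0.209) against the libraries labelled RNAiSvb. Without SvbAct replicate 2 these were -0.11 and 0.22. Set against the limits from all libraries, the first then lay inside them, while the second stayed above the upper limit of 0.04. Without Ctrl replicate 2 the first was 1.55.

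RpL36, another large subunit protein that fell just inside that limit, was also high in SvbAct replicate 2, with 549 and 676 CPM in Ctrl, 699, 1067 and 586 CPM in the libraries labelled RNAiSvb, and 596, 1114 and 482 CPM in SvbAct. Replicate 2 was the highest library of both transgenic groups, and the gene's log2 fold change against Ctrl of 0.25 (SE 0.36, adjusted p = 0.765) became -0.18 without SvbAct replicate 2. RpL14, of the large subunit, had 1219 and 1004 CPM in Ctrl, 1194, 1016 and 981 CPM in the libraries labelled RNAiSvb, and 910.2, 1228 and 801 CPM in SvbAct. RpS29, of the small subunit, had 467 and 673 CPM in Ctrl, 585, 859 and 392 CPM in the libraries labelled RNAiSvb, and 499.6, 708 and 405 CPM in SvbAct. In both genes SvbAct replicate 2 was the highest SvbAct library and the groups overlapped, with log2 fold changes against the libraries labelled RNAiSvb of -0.12 (SE 0.20, adjusted p = 0.757) and -0.19 (SE 0.30, adjusted p = 0.747). Without SvbAct replicate 2 these were -0.31 and -0.44, and without RNAiSvb replicate 2 the value of RpS29 was 0.14.

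RpL24-like (FBgn0037899, chromosome 3R, 11430740 to 11431582, minus strand), homologous to an assembly factor of the large subunit in yeast, had the lowest fold change of all members in both comparisons of SvbAct. It had 206 and 139.8 CPM in Ctrl, 138, 284 and 147 CPM in the libraries labelled RNAiSvb, and 113, 63.5 and 98.1 CPM in SvbAct. All SvbAct libraries were below all others, with replicate 2 the lowest, whereas that library was high for RpL38 and RpL36. The log2 fold change was -0.92 (SE 0.34, adjusted p = 0.193) against Ctrl and -1.05 (SE 0.31, adjusted p = 0.0719) against the libraries labelled RNAiSvb. Without SvbAct replicate 2 these were -0.71 and -0.85, and without RNAiSvb replicate 2 the second was -0.63. Its exons overlap those of Dtd on the other strand by 23 bases.

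RpLP0-like (FBgn0033485, chromosome 2R, 10098518 to 10099590, minus strand), homologous to a yeast assembly factor that occupies the place of RpLP0 on the maturing subunit, was above Ctrl in both other groups. It had 17.4 and 17.1 CPM in Ctrl, 26, 41.7 and 22.7 CPM in the libraries labelled RNAiSvb, and 20.7, 19 and 25.3 CPM in SvbAct. No library of either group overlapped with the Ctrl pair, whose values were nearly equal. The log2 fold change was 0.80 (SE 0.28, adjusted p = 0.232) for the libraries labelled RNAiSvb and 0.33 (SE 0.27, adjusted p = 0.589) for SvbAct. Without RNAiSvb replicate 2 the first was 0.50. Its exons overlap those of Jra on the other strand by 39 bases.

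**Figure D5:**
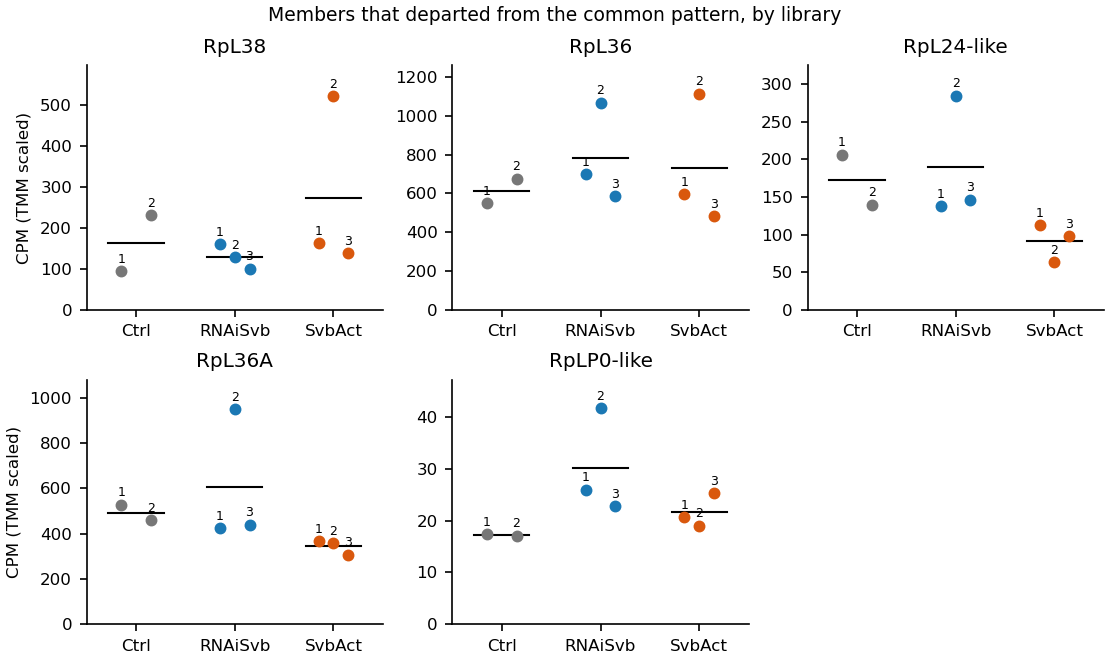
CPM with TMM scaling (vertical axis, from 0) of 5 members in each library, numbered by replicate, with the group mean as a line. RpL38 and RpL36 are highest in SvbAct replicate 2, RpL24-like is lowest there, RpL36A is highest in RNAiSvb replicate 2, and RpLP0-like lies above both Ctrl libraries in all 6 others.

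In several families both paralogs were measured, and the less abundant one's part of the family counts was followed by library. Near-identical copies can share reads, and how multiply mapped reads were counted is not given in the sources used here, so these shares are uncertain. RpLP0-like made up 1.26% and 1.49% in Ctrl, 2.24%, 2.23% and 2.04% in the libraries labelled RNAiSvb, and 2.31%, 1.97% and 2.78% in SvbAct of its family, above both Ctrl values in all 6 other libraries. RpS15Ab, the minor copy beside RpS15Aa, made up 1.08% and 1.15% in Ctrl, 1.38%, 1.64% and 1.12% in the libraries labelled RNAiSvb, and 1.45%, 1.27% and 1.5% in SvbAct. All SvbAct shares lay above the Ctrl pair, and RNAiSvb replicate 3 lay between the Ctrl values. In CPM, RpS15Ab had 9.95 and 9.36 CPM in Ctrl, 12.8, 17.9 and 9.67 CPM in the libraries labelled RNAiSvb, and 9.71, 7.73 and 10.3 CPM in SvbAct, so its own level in SvbAct overlapped Ctrl, while RpS15Aa had 912 and 808 CPM in Ctrl, 914, 1073 and 855 CPM in the libraries labelled RNAiSvb, and 662, 598 and 674 CPM in SvbAct and was lower in every SvbAct library than in any other.

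RpL24-like made up 21.5% and 17.2% in Ctrl, 16.2%, 18.2% and 17.9% in the libraries labelled RNAiSvb, and 19%, 8.71% and 18% in SvbAct of the RpL24 family, and SvbAct replicate 2 held the lowest share by far. RpL34a, the minor copy beside RpL34b, made up 13.5% and 15.6% in Ctrl, 12.4%, 16.3% and 14.8% in the libraries labelled RNAiSvb, and 13.4%, 14% and 15% in SvbAct. The groups overlapped for this pair. RpS14a and RpS14b lie side by side on chromosome X, and RpS14b made up 22.3% and 24.2% in Ctrl, 24.4%, 29.5% and 20.4% in the libraries labelled RNAiSvb, and 22.7%, 25.3% and 21.7% in SvbAct, again with overlapping groups. Mean shares of RpL34a were 14.5% ± 1.44 (SD, n = 2) in Ctrl, 14.5% ± 1.98 (SD, n = 3) for RNAiSvb and 14.1% ± 0.78 (SD, n = 3) in SvbAct.

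Per length, the members spanned a wide range of levels. The median over members of CPM per kb of merged exons was 873 in Ctrl, 1008 in the libraries labelled RNAiSvb and 681 in SvbAct, and in Ctrl 75 of 78 members exceeded 100. The highest mean level in Ctrl belonged to RpL41, the shortest ribosomal protein, with 1762 and 3419 CPM per kb in Ctrl, 2480.5, 2825 and 2075 CPM per kb in the libraries labelled RNAiSvb, and 2534, 1529 and 1875 CPM per kb in SvbAct. The stalk protein RpLP2 had 2566 and 2025 CPM per kb in Ctrl, 2605, 4116 and 2993 CPM per kb in the libraries labelled RNAiSvb, and 1758, 2654 and 1758 CPM per kb in SvbAct. RpL14 had 1970.1 and 1622 CPM per kb in Ctrl, 1929.5, 1642 and 1584 CPM per kb in the libraries labelled RNAiSvb, and 1470.4, 1983 and 1294 CPM per kb in SvbAct. The Ctrl values of RpL41 overlapped those of RpLP2 and RpL14, while those of RpLP2 lay above those of RpL14. RpL41 was one of the members that differed most between the Ctrl libraries. Among the lowest levels in Ctrl were those of RpLP0-like (mean 18.2 CPM per kb) and RpS15Ab (13.3), which did not overlap each other in Ctrl.

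The members are short genes spread over all large chromosome arms, with 16 on 2L, 17 on 2R, 13 on 3L, 19 on 3R, 12 on X and 1 on chromosome 4. Their median merged exon length was 922 bases, from 288 to 3835, against 2055 for all genes in the table. By chromosome arm, the median log2 fold change of SvbAct against the libraries labelled RNAiSvb was -0.51 on 2L, -0.54 on 2R, -0.55 on 3L, -0.53 on 3R and -0.53 on X, and the gene on chromosome 4 is RpS3A. Members that contain a snoRNA gene (25 of 78) had a median of -0.56 and the other 53 a median of -0.53. The 51 members with no exon overlap with another gene had a median of -0.53. For comparison, the 1298 non-members with under 1000 bases of exon had a median of -0.05, and the 133 of these with a mean of at least 100 CPM had -0.03. Over all 1766 non-members of at least 100 CPM it was 0.08.

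The ribosome genes that the naming rule leaves out had lower means in SvbAct as well. The gene sta, the fly homolog of the human small subunit gene RPSA, had 2057 and 1293 CPM in Ctrl, 1765, 2839 and 2021 CPM in the libraries labelled RNAiSvb, and 1305, 1102 and 1253 CPM in SvbAct. Rack1, the scaffold protein of the small subunit head, had 1788 and 1322 CPM in Ctrl, 1526, 2062 and 1301 CPM in the libraries labelled RNAiSvb, and 1150.0, 1262 and 1111 CPM in SvbAct. In both genes RNAiSvb replicate 2 was the highest library. For sta, SvbAct replicate 1 lay above Ctrl replicate 2, while for Rack1 every SvbAct library was below all others. Against Ctrl the log2 fold changes of SvbAct were -0.46 (SE 0.26, adjusted p = 0.399) for sta and -0.41 (SE 0.23, adjusted p = 0.403) for Rack1. The log2 fold change of SvbAct against the libraries labelled RNAiSvb was -0.86 (SE 0.23, adjusted p = 0.0574) for sta and -0.47 (SE 0.21, adjusted p = 0.199) for Rack1. Neither gene was called in either comparison. The lists of related genes below were drawn up with earlier results of these data known.

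Around the ribosome, few single genes were called. Of 9 elongation and termination factors tested, 1 was called lower in SvbAct than in the libraries labelled RNAiSvb, against 2.21% of all genes, and the list median was -0.35. That gene was eEF1delta, a subunit of the exchange factor that recharges the elongation factor carrying tRNA, with 93.8 and 93.8 CPM in Ctrl, 122, 124 and 111 CPM in the libraries labelled RNAiSvb, and 66.6, 34.4 and 69.5 CPM in SvbAct. Its SvbAct libraries were below all others and it fell by 1.06 on the log2 scale (SE 0.23, adjusted p = 0.0264). It was called in 6 of the 8 fits that left out a library each, and not without RNAiSvb replicate 1 or RNAiSvb replicate 2. The 25 initiation factors had medians of 0.01, -0.22 and -0.18 in the order RNAiSvb against Ctrl, SvbAct against Ctrl and SvbAct against RNAiSvb, with 0 called in each and 0, 4 and 5 lower at an unadjusted p under 0.05, against 7%, 7.81% and 11.6% of all genes.

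The 22 genes tested from the ribosome biogenesis list had medians of 0.36, -0.21 and -0.53 in the same order, with 0 called in each. At an unadjusted p under 0.05, 10 of them were lower and 1 higher in SvbAct than in the libraries labelled RNAiSvb, against 11.6% and 12.1% of all genes, and 6 were lower without RNAiSvb replicate 2 against 7.74%. The 1 higher was pes, at 0.71 (SE 0.19, adjusted p = 0.054). In the fly this symbol stands for the scavenger receptor gene peste, so its place in the list is doubtful. The place of nom (0.35) is uncertain too, and the medians include both. The 8 subunits and factors of RNA polymerase I, which transcribes rRNA, had medians of 0.26, -0.33 and -0.44. The catalytic subunit gene Polr1A had 91.2 and 76.8 CPM in Ctrl, 99.6, 135 and 106 CPM in the libraries labelled RNAiSvb, and 63, 56.5 and 81.4 CPM in SvbAct. All its SvbAct libraries were below all libraries labelled RNAiSvb, SvbAct replicate 3 was above Ctrl replicate 2, and the gene fell by 0.77 between the libraries labelled RNAiSvb and SvbAct (SE 0.18, adjusted p = 0.0365). It was called in 2 of the 8 fits that left out a library each, those without SvbAct replicate 3 or RNAiSvb replicate 1.

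Among 17 growth regulators, 1 was called higher in each comparison of SvbAct, where 1.95% of all genes against Ctrl and 4.05% against the libraries labelled RNAiSvb were called higher. The insulin receptor gene InR had 184 and 233 CPM in Ctrl, 343, 235 and 289 CPM in the libraries labelled RNAiSvb, and 390.1, 627 and 397 CPM in SvbAct, and it rose in SvbAct against Ctrl by 1.17 on the log2 scale (SE 0.26, adjusted p = 0.0365). Mnt, a repressor that competes with Myc for their shared partner, had 274 and 279 CPM in Ctrl, 309.9, 166 and 226 CPM in the libraries labelled RNAiSvb, and 454, 436 and 369 CPM in SvbAct. It was higher in SvbAct than in the libraries labelled RNAiSvb by 0.84 (SE 0.22, adjusted p = 0.046). With a library left out in turn, InR was called in 5 of 8 fits, and not without Ctrl replicate 1, Ctrl replicate 2 or SvbAct replicate 2, and Mnt in 1 of 8, that without RNAiSvb replicate 1. Myc was not analysed here. Thor, which represses cap-dependent translation, and Xrp1, a transcription factor induced when ribosomal proteins are out of balance, were not called in any comparison: their differences between SvbAct and Ctrl were -0.48 (SE 0.26, adjusted p = 0.368) and 0.29 (SE 0.19, adjusted p = 0.487).

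Markers of other cells and of RNA state moved with some of these libraries. Summed over 6 progenitor markers tested, the level was 94.5 and 113 CPM in Ctrl, 104, 102 and 108 CPM in the libraries labelled RNAiSvb, and 248, 299.9 and 208 CPM in SvbAct, and 5 of the 6 were called higher in SvbAct in both of its comparisons, against 1.95% and 4.05% of all genes. Against Ctrl, 1 of the 6 was called without Ctrl replicate 1 and 2 without Ctrl replicate 2. The defining progenitor genes esg and Dl were not analysed here. The 9 enterocyte markers summed to 14041 and 13379 CPM in Ctrl, 15953, 16428.5 and 13915 CPM in the libraries labelled RNAiSvb, and 15325, 17652 and 15597 CPM in SvbAct. All SvbAct sums lay above both Ctrl sums, and RNAiSvb replicate 3 lay between the Ctrl sums. Single markers moved in opposite directions. The transcription factor gene nub was called higher in SvbAct than in Ctrl by 1.21 on the log2 scale (SE 0.20, adjusted p = 0.0107). Between SvbAct and the libraries labelled RNAiSvb, bbg was called higher by 0.67 (SE 0.17, adjusted p = 0.0425), and the trypsin gene alphaTry was called lower, at -0.87 (SE 0.21, adjusted p = 0.0376). With a library left out in turn, nub was called in 6 of 8 fits, and not without Ctrl replicate 1 or Ctrl replicate 2. The call of bbg held in 0 of 8 such fits, and that of alphaTry in 1 of 8, the one without RNAiSvb replicate 3. Of 10 enteroendocrine markers, whose sum lay between 318 and 483 CPM, 1 (Dh31) was called lower in the libraries labelled RNAiSvb than in Ctrl, against 1.09% of all genes. In SvbAct 2 (Dh31 and ITP) were called higher than in the libraries labelled RNAiSvb, against 4.05%. With a library left out in turn, the log2 fold change of Dh31 ran from -2.35 to -1.89 in the first comparison. In the second, Dh31 ran from 2.10 to 2.51 and ITP from 1.64 to 2.41. Messenger RNAs of the mitochondrial genome summed to 21234 and 37675 CPM in Ctrl, 34356, 15392 and 19392 CPM in the libraries labelled RNAiSvb, and 39557, 69743 and 28718 CPM in SvbAct. The sum was highest in SvbAct replicate 2 and lowest in RNAiSvb replicate 2, while most members were raised in both. All 9 of these genes had positive fold changes in both comparisons of SvbAct, with medians of 0.65 against Ctrl and 1.055 against the libraries labelled RNAiSvb, and 0 were called. In the second comparison 7 were higher at an unadjusted p under 0.05 in the quasi-likelihood test, against 12.1% of all genes. Visceral muscle markers summed to 1706 and 1569 CPM in Ctrl, 1983, 1038 and 2759.9 CPM in the libraries labelled RNAiSvb, and 2446, 2029 and 1591 CPM in SvbAct, with RNAiSvb replicate 2 the lowest. Markers of germ line and ovary were mostly not analysed here, and the 2 that were tested summed to between 3.54 and 13.6 CPM, highest in SvbAct replicate 2 and RNAiSvb replicate 2. Markers of hemocytes and fat body reached at most 6.18 CPM in sum. The part of these differences in the shift of the ribosomal protein genes was not tested.

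The authors' deposited table gives its own fold changes and p-values for both comparisons with Ctrl. In the authors' deposited table the median log2 fold change of the members was -0.29 for SvbAct and 0.19 for RNAiSvb. With Benjamini-Hochberg adjustment of the p-values in the authors' deposited table, 0 members passed 0.05 in either comparison, where 5.98% and 3.29% of all genes did, and the smallest adjusted p was 0.0753 for SvbAct and 0.177 for RNAiSvb.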

How the data were processed

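RNA from strained enterocyte patches was sequenced in 8 libraries (2 Ctrl, 3 RNAiSvb, 3 SvbAct), grouped by sample title. The deposited table holds whole-number counts per FlyBase gene, made by the authors. The submitters' processing notes name FastQC 0.11.5, STAR 2.5.2b, HTSeq 0.6.0, edgeR and the build dm6, without saying what each was used for. Annotation, strand setting and treatment of multiply mapped reads are not given in the sources used here, so genes that overlap on opposite strands and near-identical copies are uncertain. The authors' log2 fold changes and p-values were read as deposited.

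The tests used edgeR 4.0.16 (limma 3.58.1, R 4.3.3). The group-wise filterByExpr removed 402 of the 9177 genes, and 8775 were tested. TMM factors, which scale the CPM, ran from 0.93 to 1.09. The quasi-likelihood test was fitted to all 8 libraries with a mean per group, which left 5 residual degrees of freedom and a common biological coefficient of variation of 0.282. P-values were adjusted by Benjamini-Hochberg over all genes within each of 3 contrasts, with a threshold of 0.05. Each SE was derived as the size of the log2 fold change over the root of the F statistic. P-values set the difference between groups against the spread between libraries within groups, estimated over the groups together. The 2 Ctrl libraries tell little about the spread of that group. In simulated data over 8775 genes, log2 changes of 1 were recovered for 34% of changed genes in RNAiSvb against Ctrl, 41% in SvbAct against Ctrl and 62% in SvbAct against RNAiSvb, and changes of 2 for 93%, 96% and 93%. The changed genes were drawn at random from those above a low mean level, with noise drawn separately for each gene. Most members were abundant and moved together within libraries, so these shares do not give the recovery for the members. Recovery of smaller shifts was not simulated.

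Symbols were matched to gene IDs through the Ensembl 115 annotation of BDGP6.54 (117 IDs unmatched), which also gave 1-based coordinates on the dm6 sequence and merged exon lengths. Named members were those called, the 5 highest and 5 lowest fold changes in each contrast, those more than 3 scaled median absolute deviations from the member median, both members of paralog pairs, and the 3 highest and 3 lowest levels per kb in Ctrl. Single values of 3 members are not reported here, though the counts and medians include them. RpLP1, RpL11 and RpL40 were added for their known roles, after their values were seen. From each of the 14 gene lists at most 3 called genes are named. Members and lists were chosen with earlier results of these data known. Counts of libraries within a group differed beyond sampling noise in every pair (lowest chi-square over its degrees of freedom 62.2). Alternatives were DESeq2 1.42.0 (size factors and Wald test), library totals, TMM factors without the members, other count filters, fits restricted to the groups compared, edgeR's likelihood ratio test, a replicate block and leaving out each library.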

Additional observations from a re-analysis of the deposited data

How the results depend on the processing

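The median of the members kept its sign in every setting tried for both comparisons of SvbAct, while for RNAiSvb against Ctrl it was 7.7e-05 without RNAiSvb replicate 2, with 39 members above 0 and 39 below. In every setting tried, 0 members were called against Ctrl. For SvbAct against RNAiSvb, the number of members called was 3, and became 1 with DESeq2 size factors, 1 with at least 10 counts in every library, 23 by the DESeq2 Wald test, 18 by the likelihood ratio test, 0 when only the groups compared were fitted, 0 with the replicate block, 0 without RNAiSvb replicate 2 and SvbAct replicate 2 together (a setting chosen after seeing the data), and 0 to 2 with each library left out. The median for that comparison ran from -0.62 to -0.29 over the single libraries left out, from 7.7e-05 to 0.34 for RNAiSvb against Ctrl and from -0.41 to -0.19 for SvbAct against Ctrl. Library totals in place of TMM moved the median of all genes in RNAiSvb against Ctrl to 0.13 and that of the members to 0.29. The share of counts on members was 6.74% in Ctrl, 8.1% for RNAiSvb and 5.57% in SvbAct when the 10 most abundant other genes left the denominator. Some fold changes of named genes, none of them called, reversed their sign. For RNAiSvb against Ctrl, RpL41 became 0.031 and RpL5 0.0065 with library totals, and RpL38 became 0.16 and RpL41 0.018 with the replicate block. With single libraries left out, RpL38 ran from -0.84 to 0.47, RpL41 from -0.48 to 0.48 and RpL5 from -0.28 to 0.018. For SvbAct against Ctrl, RpS15Ab became 0.033 with library totals, 0.014 with the replicate block and 0.058 without both doubted libraries, where RpL36 became -0.18 and RpL38 -0.10. With single libraries left out, RpS15Ab ran from -0.15 to 0.048, RpL36 from -0.18 to 0.48 and RpL38 from -0.11 to 1.55. For SvbAct against RNAiSvb, single libraries left out gave a range from -0.54 to 0.19 for RpL36, from -0.31 to 0.0082 for RpL14 and from -0.44 to 0.14 for RpS29, and the lowest RpL14 value, -0.35, came without both doubted libraries. The causes were not tested. Samples share only a replicate number: same-number correlations of the deviations ran from -0.06 to 0.14. With the replicate block the medians were 0.25, -0.23 and -0.53. The small groups limit the precision.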
